A study of Mus musculus with 48 samples.

Results

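Transcripts that the GENCODE M21 annotation types as nonsense_mediated_decay were followed in single cells of the mouse embryo. The members were chosen by that annotation type alone, with no measured value. They came to 3152 of the 52927 transcripts in the tables, or 5.97% of the 52799 transcripts found in M21. They belonged to 2404 of 21435 genes (11.2%). Most of these genes, 1870, had a single member, 11 genes had 5 or more, and *Tmem234* had the most with 11. In all 48 cells 86 members were at 0, and 3066 were above 0 in at least 1 cell. Shares within a gene were computed only for genes with a mean of 1 or more in each group, where 1 means 1 read per 10000 reads of a cell. Of 1230 such genes 244 carried a member (19.8%). *Usp50*, with means of 1.33 in HEC and 2.83 in AEC cells, had no other transcript in the tables, which left 243 genes with 353 members, of which 350 were above 0. Just inside this level were *Fads1*, with means of 1.00 in HEC and 1.47 in AEC cells, and *Smchd1*, with 1.01 in HEC and 1.27 in AEC cells. Just outside it were *Pum3*, with means of 1.08 in HEC and 0.995 in AEC cells, and *Usp7*, with 0.993 in HEC and 1.06 in AEC cells.

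The cells were 24 HEC and 24 AEC cells sorted by FACS from the aorta-gonads-mesonephros region (AGM) of wild-type C57 embryos at E10.0, with misshapen cells discarded. PolyA RNA of each cell was read as full-length cDNA on a Nanopore PromethION, which can follow a transcript across its splice junctions. The labels do not spell out HEC and AEC, which in this field commonly stand for hemogenic endothelial cells, the endothelium that gives rise to blood, and arterial endothelial cells. For the HEC cells the tag for cell type reads "Hematopoietic stem cells", so the groups follow the titles. The sources used here give neither the sort markers nor the animals, so each group is 1 sample: differences are described against the SD between cells, and no difference was tested.

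Nonsense-mediated decay (NMD) is the cytoplasmic pathway that destroys mRNAs whose reading frame ends early. Splicing leaves an exon junction complex on each junction, and a ribosome that stops well before the last junction leaves such a complex in place, where UPF and SMG proteins start the decay. Several genes of splicing factors are known to include a poison exon, a conserved exon that carries an in-frame stop codon, and so lower their own protein output. An annotated member is a prediction from the position of the stop codon, so its reads in a cell show that the RNA was present, not that it was being degraded.

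The sequences below show how members of the leading genes differ from the coding transcripts of the same gene. Each starts with the 15 bases before a splice junction found in no coding transcript of the gene (an own junction, here the last one before the stop) and runs, in the sense of the gene, to the stop codon, which is in capitals. *Srsf3*, *Srsf7*, *Tra2b* and *Sat1* are shown because the junction opens into an exon of the member's own that holds the stop. In *Rpsa*, *Col4a1*, *Coro1c*, *Flna* and *Eif4g1*, shown because of their high shares, the stop lies in exon sequence that coding transcripts also hold, at a place where none of them stops. The letters are those of the GENCODE M21 transcripts, on mm10 (GRCm38). The stops lie at chr17:29039485-29039487 on the plus strand (*Srsf3*), chr17:80205054-80205056 on the minus strand (*Srsf7*), chr16:22259181-22259183 on the minus strand (*Tra2b*) and chrX:155215217-155215219 on the minus strand (*Sat1*). The others lie at chr9:120130192-120130194 on the plus strand (*Rpsa*), chr8:11202977-11202979 on the minus strand (*Col4a1*), chr5:113848600-113848602 on the minus strand (*Coro1c*), chrX:74240322-74240324 on the minus strand (*Flna*) and chr16:20686540-20686542 on the plus strand (*Eif4g1*).
Srsf3-201: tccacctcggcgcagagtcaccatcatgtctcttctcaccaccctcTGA
Srsf7-203: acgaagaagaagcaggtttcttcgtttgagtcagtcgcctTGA
Tra2b-206: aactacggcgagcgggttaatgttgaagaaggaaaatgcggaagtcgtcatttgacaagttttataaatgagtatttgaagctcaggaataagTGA
Sat1-207: actggacccctgaaggttacagtctcTAG
Rpsa-206: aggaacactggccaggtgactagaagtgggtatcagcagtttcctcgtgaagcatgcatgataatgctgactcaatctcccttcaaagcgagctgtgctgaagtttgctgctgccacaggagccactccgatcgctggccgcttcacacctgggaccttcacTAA
Col4a1-208: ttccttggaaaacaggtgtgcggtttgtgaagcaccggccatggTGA
Coro1c-205: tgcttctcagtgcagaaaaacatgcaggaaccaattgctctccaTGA
Flna-213: ctgtaaagggtcccaggTGA
Eif4g1-222: ggcccagctccccatTGA
The stop codon directly follows the junction in *Eif4g1*, whereas it ends 150 bases after the junction in *Rpsa*.

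The structure of the members was taken from the same annotation that gives their type. Because the type is a prediction from the position of the stop codon, the distance of the stop does not test it. Of 3150 members with an annotated stop codon, 3137 (99.6%) had it more than 50 bases before the last junction, the distance by which such stops are usually recognised. The median distance was 429.5 bases with 3 junctions after the stop. In 1789 members (56.8%) the stop lay in exon sequence of coding transcripts, untranslated parts included, at a place where none of them stops. Their reading frames were not compared. In 1071 (34.0%) it lay in sequence that no coding transcript of the gene holds. In 290 (9.21%) the stop was that of a coding transcript and a further junction followed it. An exon of their own, which overlaps no exon of a coding transcript, was found in 1056 members (33.5%), no own junction in 156, and an incomplete 5′ end in 696. Members were 1930.5 bases long in the median, and their length was 64.1% of that of the gene's longest coding transcript.

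**Figure D1:**
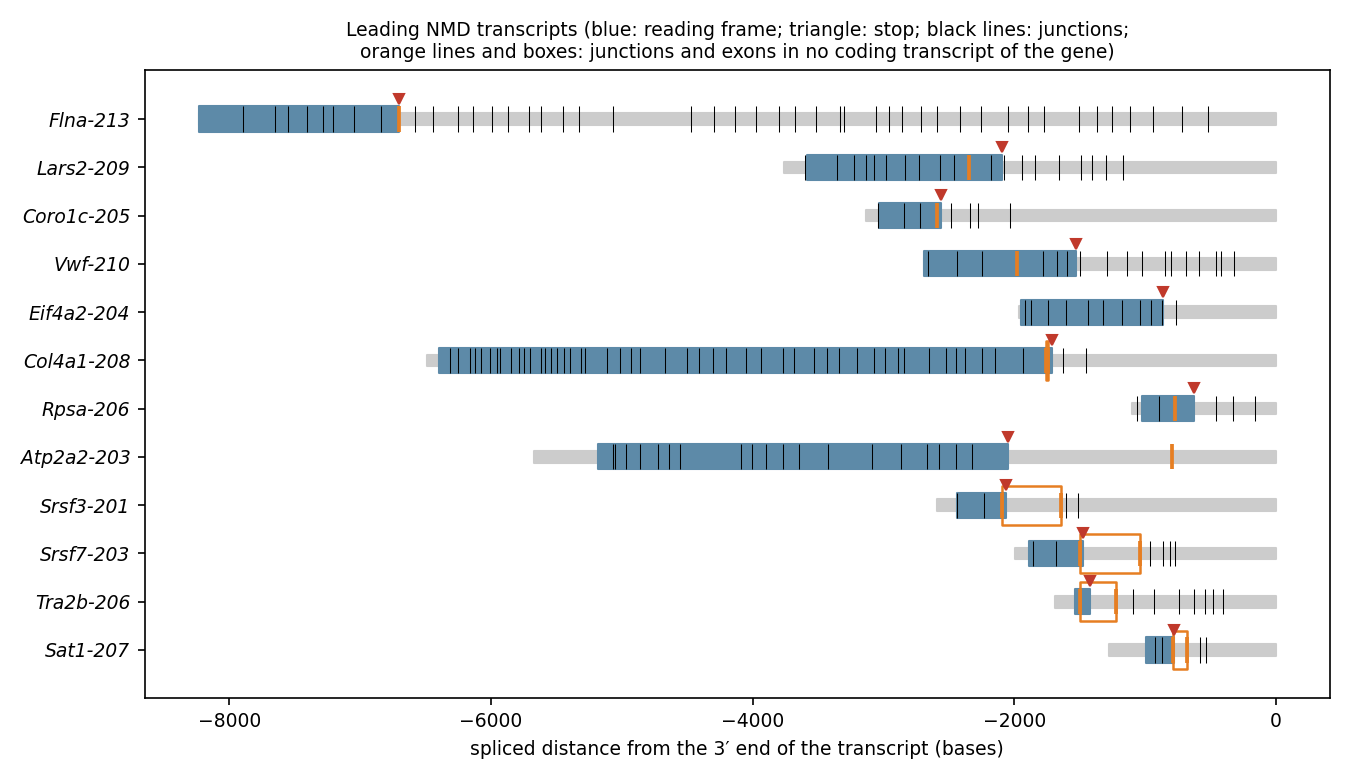
Spliced maps of the leading members of 12 genes, drawn to scale as distance from the 3′ end in bases. Blue is the annotated reading frame, the triangle its stop, black lines are junctions, and orange lines and boxes are junctions and exons in no coding transcript of the gene. The orange line lies 6704 bases from the 3′ end in Flna-213 and 679 bases from it in Sat1-207, and Eif4a2-204 has none.

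Depth was 96410 to 8897958 reads per HEC cell (median 724674) and 13261 to 4883854 reads per AEC cell (median 769716), and 23 HEC and 18 AEC cells had 100000 reads or more. The hemogenic marker genes summed to 1.30 to 17.2 (median 9.91) in HEC cells and to 0.119 to 5.62 (median 1.07) in AEC cells, and the arterial ones to a median of 3.33 in HEC and 30.9 in AEC cells. The endothelial genes *Cdh5* and *Kdr* together were below 1 in 2 HEC and 3 AEC cells. The mesenchymal genes summed to at most 5.93 in an HEC cell but to 78.1 in 1 AEC cell, and the erythroid genes had a median of 25.7 in HEC and 9 in AEC cells. Their part in the shares was not tested. Without the cells low in *Cdh5* and *Kdr*, 48 genes in place of 40 had an NMD share of 10% or more in both groups, 9 in place of 8 had 50% or more, and 6 in place of 5 differed by 20 points.

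NMD transcripts took up about 1 in 50 reads of a cell. Their share of all values was 1.29% to 2.54% in HEC cells (median 2.03%, mean 1.97% ± 0.325, SD over 24 cells) and 1.37% to 4.39% in AEC cells (median 2.18%, mean 2.37% ± 0.721). Of the AEC cells 18 lay within the HEC range and 6 above the highest HEC cell, and the 0.151 points by which the HEC median was lower were less than either SD. The highest values belonged to shallow AEC cells, and Spearman's correlation of the share with depth was -0.470 over the 24 HEC and -0.423 over the 24 AEC cells. In cells of 100000 reads or more the HEC median was lower by 0.0213 points. Without *Lars2*, whose single member supplied 13.2% of all NMD values, the medians were 1.78% in HEC and 1.92% in AEC cells. Retained-intron transcripts, another large class that does not encode the full protein, had medians of 2.96% in HEC and 3.08% in AEC cells. The number of different NMD transcripts found had a median of 583.5 (377 to 1169) in HEC cells, against 397 (150 to 809) in AEC cells, and the number of all genes found had medians of 10645 in HEC and 8317 in AEC cells. With every cell thinned to 10000 reads the medians were 109 in HEC (91 to 135, SD 12.4) and 95 in AEC cells (64 to 142, SD 21.1), a gap above the SD of the HEC cells and below that of the AEC cells, and all genes found had medians of 3107 in HEC and 2800 in AEC cells.

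**Figure D2:**
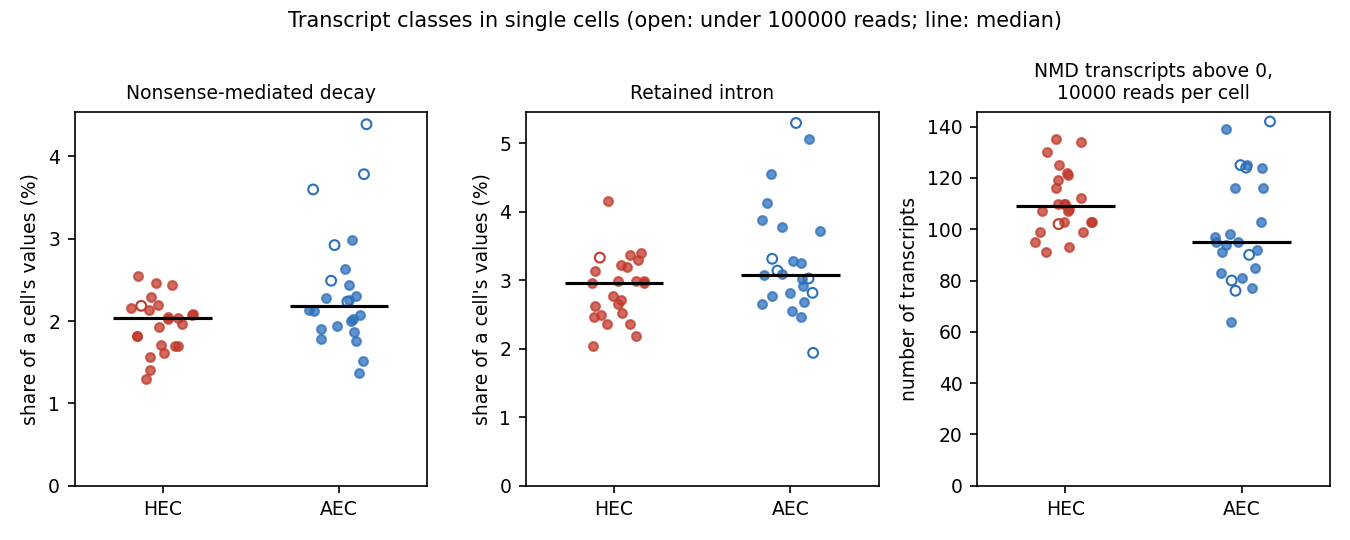
Share of NMD and of retained-intron transcripts in each cell (percent of the cell's values), and the number of NMD transcripts above 0 after thinning to 10000 reads, in 24 HEC (left) and 24 AEC cells (right). Open points are cells under 100000 reads and lines are medians; the NMD share had medians of 2.03% in HEC and 2.18% in AEC cells, and the open AEC points hold the highest values.

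A few abundant genes carried much of the NMD signal. The 10 highest members held 29.7% and the 100 highest 52.9% of the summed values of all members. After *Lars2*, which encodes the mitochondrial leucyl-tRNA synthetase, came *Rpsa* (3.73%), a protein of the small ribosomal subunit, and *Vwf* (2.80%), the von Willebrand factor of endothelial cells. Also high were *Ppia* (2.45%), the prolyl isomerase cyclophilin A, *Col4a1* (1.63%), a chain of basement membrane collagen, and *Flna* (1.42%), the actin crosslinker filamin A. *Ppia* was an abundant gene with a modest share, 10.2% in HEC and 6.16% in AEC cells. Ribosomal protein genes and *Ppia* have many pseudogene copies, so the split of their reads between copies is uncertain. Only 18 members in HEC and 19 in AEC cells had a mean of 1 or more, 12 of them in both.

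In most of the 243 genes the NMD transcripts were a small fraction. The pooled share, which sums the NMD values of a gene over the cells of a group and divides by the summed values of all its transcripts, had a median of 1.62% in HEC and 1.76% in AEC cells, and 22 genes in HEC and 41 in AEC cells were at 0. A share of 10% or more in both groups was found in 40 genes, which is 16.5% of the genes, and a share of 50% or more in both in 8. The mean over cells of the share in each cell, taken over cells with the gene above 0, had medians of 1.56% in HEC and 2.51% in AEC cells. Gene by gene the groups were alike in order, with a Spearman correlation of 0.794 between the HEC and AEC shares over the 243 genes. The share was higher in HEC cells for 131 genes, lower for 111 and equal for 1. Pooled and per-cell differences had the same sign in 218 genes, and in 0 genes was the difference of the per-cell means larger than the SD between cells in both groups.

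**Figure D3:**
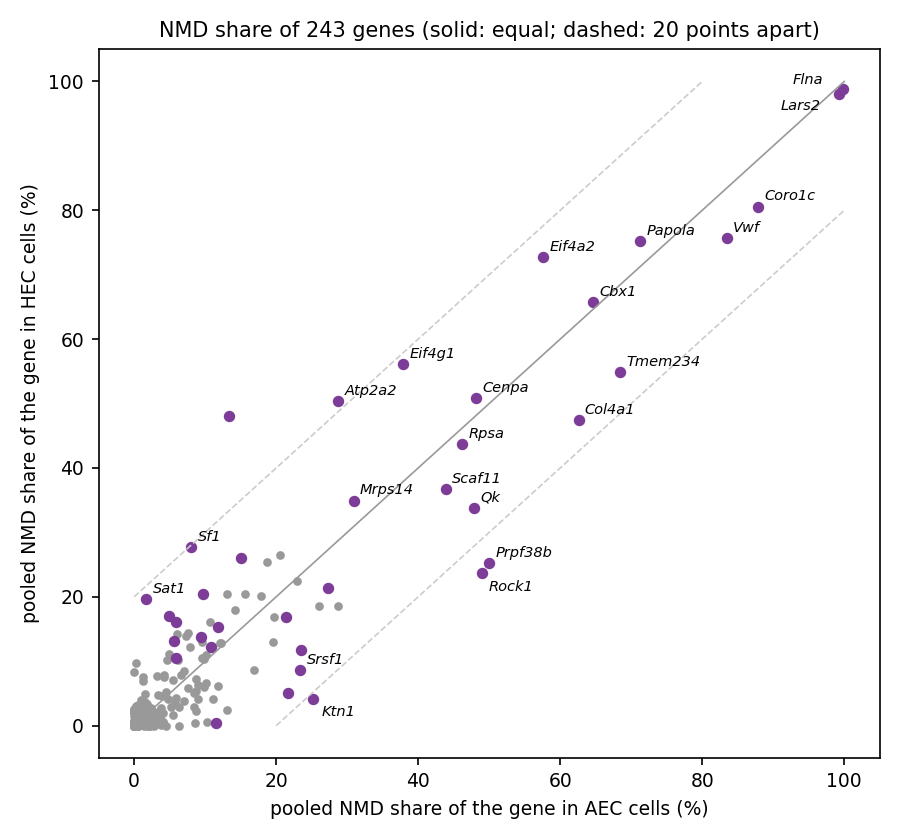
Pooled NMD share (percent of the gene's summed value) of 243 genes in HEC cells (vertical axis) and in AEC cells (horizontal axis). Purple points are the genes picked by the naming rule; the solid line marks equal shares and the dashed lines a difference of 20 points, and 5 genes lie beyond the dashed lines, among them *Rock1* with 23.8% in HEC and 49.0% in AEC cells.

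Some of the highest shares were found in single genes of the cytoskeleton and of the vessel wall, for which no gene list was counted. *Flna*, on chrX:74223461-74249820 on the minus strand, was almost wholly NMD: 79.4% to 100% per HEC cell and 97.0% to 100% per AEC cell, with pooled shares of 98.9% in HEC and 99.8% in AEC cells. Its member has an incomplete 5′ end and 37 junctions after the stop, and only 4 *Flna* transcripts were in the tables. *Coro1c*, which encodes a coronin that binds actin filaments, had shares of 0% to 100% per cell in both groups, with medians of 96.0% in HEC and 100% in AEC cells and pooled shares of 80.6% in HEC and 87.9% in AEC cells. *Vwf* (chr6:125546774-125686679, plus strand) had 27.6% to 96.0% per HEC cell (median 76.5%) and 56.0% to 100% per AEC cell (median 84.9%). In *Vwf* the share was above 50% in 22 HEC and 24 AEC cells, and the groups overlapped, with per-cell means of 73.9% ± 14.9 in HEC and 82.1% ± 11.4 in AEC cells. The *Vwf* share rested on an incomplete 5′ end and on an own junction farther than 1000 bases from the 3′ end. With members limited to complete 5′ ends, or to an own junction within 1000 bases, its difference was 0 points in place of -7.75.

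*Col4a1* (chr8:11198423-11312826, minus strand) was split between cells. Its share was 0% in 9 HEC cells and 100% in 10, and 0% in 10 AEC cells and 100% in 8. These extremes also occurred at high read numbers. The share was 0% in AEC 16 with 4357 reads of the gene and in AEC 5 with 4069. It was 100% in AEC 3 with 3239 reads and in AEC 14 with 1592. The part played by how reads were divided between transcripts was not tested. The pooled share was 47.5% in HEC and 62.6% in AEC cells, but the per-cell means were 53.8% ± 46.5 in HEC and 54.7% ± 48 in AEC cells. Pooled over recovered reads, which weights deep cells more, it was 61.4% in HEC and 43.6% in AEC cells, so the direction depended on the weighting. *Rock1*, a kinase that drives actomyosin contraction, had no NMD reads in 15 HEC and 16 AEC cells that held the gene, and up to 92.3% in an HEC cell and 100% in an AEC cell. *Atp2a2*, the calcium pump of the endoplasmic reticulum, had 0% to 100% per cell in both groups, with medians of 36.2% in HEC and 12.9% in AEC cells. Its member keeps the stop of the coding transcript and has 1 junction 1258 bases after it. *Ktn1*, the kinesin-binding protein kinectin, had a pooled share of 4.13% in HEC and 25.2% in AEC cells, from 8 HEC and 9 AEC cells with NMD reads.

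Of 39 endothelial genes 6 carried a member, and of the 22 with a mean of 1 or more in both groups 4 did, near the 244 of 1230 over all genes. *Egfl7*, a secreted factor of endothelial cells, had 0% to 34.2% per HEC cell (median 9.11%) and 0% to 60% per AEC cell (median 5.26%). Its pooled share was 13.2% in HEC and 5.57% in AEC cells while the level of the whole gene was lower in HEC, with a mean of 3.93 in HEC and 7.15 in AEC cells. *Ramp2*, the partner of the adrenomedullin receptor, had pooled shares of 10.6% in HEC and 5.87% in AEC cells, with ranges of 0% to 77.3% per HEC cell and 0% to 45.5% per AEC cell. The leading member of *Ramp2* shares 1103 exonic bases with *Vps25* on the same strand, and that of *Egfl7* shares 221 with a gene model on the same strand, so reads of these members and of the neighbours are hard to tell apart. The other carriers on the list that passed the level, *Ecscr* and *Cd34*, were under 10% in each group. *Vwf*, described above, was not on this list. Of 33 hemogenic genes 4 carried a member and 3 had a mean of 1 or more in both groups. Only *Mecom* did both, with a share of 0% in HEC and 0.0110% in AEC cells.

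Genes of translation held members at several steps. *Rpsa* (chr9:120127689-120132369, plus strand) had 11% to 71.3% per HEC cell (median 46.1%) and 0% to 92.0% per AEC cell (median 44.1%). The groups overlapped, with pooled shares of 43.8% in HEC and 46.2% in AEC cells, and they rested on 68135 reads of the gene in HEC and 36891 in AEC cells. Of 82 ribosomal protein genes 18 carried a member, and *Rpsa* had the highest share of these. Their medians were 2.33% in HEC and 1.105% in AEC cells, and 3 of the 18, *Rpsa*, *Rpl36a* and *Rpl12*, reached 10% in both groups, a share near the 40 of 243 over all genes. *Lars2* had pooled shares of 98.1% in HEC and 99.2% in AEC cells. Its NMD value was 11.98 to 54.4 per HEC cell (median 17.3) and 9.08 to 225 per AEC cell (median 17.1), of which the cell AEC 8 supplied 25.96% of the group's sum. The medians were close, and the higher AEC mean of the gene, 21.5 in HEC against 36.4 in AEC cells, came with an SD of 54.4 between AEC cells. The cell highest in *Lars2* was in each group the one with the lowest share of coding transcripts. That share was 72.0% in HEC 22 (HEC median 82.9%) and 47.8% in AEC 8 (AEC median 82.3%), and a link was not tested. *Mrps14*, a mitochondrial ribosomal protein, had pooled shares of 34.9% in HEC and 30.9% in AEC cells.

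Of 44 translation initiation and elongation factors 33 had a mean of 1 or more in both groups, but only 8 carried a member. Of these 8 carriers 7 passed the level, with median shares of 0.0244% in HEC and 0.310% in AEC cells. Over all 243 genes the medians were 1.62% in HEC and 1.76% in AEC cells. Of the 7 factors 2, described next, reached 10% in both groups, where 40 of 243 genes (16.5%) did. *Eif4a2*, an RNA helicase that unwinds the mRNA leader and also hosts small nucleolar RNAs, had 34.0% to 98.7% per HEC cell (median 77.5%) and 0% to 100% per AEC cell (median 63.8%). The pooled share was 72.7% in HEC and 57.6% in AEC cells. Its leading member has no junction of its own and keeps a coding stop, with 1 junction 97 bases after it. *Eif4g1*, the scaffold of the cap-binding complex, had 0% to 92.6% per HEC cell (median 55.7%) and 0% to 100% per AEC cell (median 30.3%). NMD reads were found in 23 of 24 HEC cells and in 15 of 24 AEC cells, and the pooled share was 56.2% in HEC and 37.9% in AEC cells. Weighted by recovered reads it was 33.6% in HEC and 48.4% in AEC cells, the opposite order.

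Several of the genes with high shares take part in RNA processing. *Papola*, the canonical poly(A) polymerase, had 41.2% to 100% per HEC cell (median 78.7%) and 0% to 100% per AEC cell (median 87.5%), and pooled shares of 75.2% in HEC and 71.2% in AEC cells. *Qk*, the splicing regulator quaking, had pooled shares of 33.7% in HEC and 47.9% in AEC cells. *Scaf11*, an SR-related splicing protein, had 36.8% in HEC and 43.9% in AEC cells. *Prpf38b*, a spliceosome-associated protein, had 25.2% in HEC and 49.96% in AEC cells, with NMD reads in 11 HEC and 13 AEC cells. *Sf1*, the branch point binding protein, had 27.7% in HEC and 8.04% in AEC cells. *Hnrnpd*, which encodes the AU-rich element binding protein AUF1, had 21.3% in HEC and 27.3% in AEC cells, and with AEC 18 left out, which supplied 67.3% of the AEC value, the difference was 5.87 points in place of -5.94.

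The SR proteins, which bind exonic enhancers and promote splicing, carried members in 10 of 15 genes, and 8 of these passed the level. Their median share was 10.4% in HEC and 10.1% in AEC cells, against 1.62% in HEC and 1.76% in AEC cells over all 243 genes, and 3 of 8 reached 10% in both groups, where 40 of 243 genes did. The hnRNP genes are also splicing regulators. Of 30 such genes 11 carried a member, and 8 of these passed the level. Their medians were 10.8% in HEC and 9.80% in AEC cells, with 4 of 8 at 10% or more in both. Of 48 core spliceosome genes 14 carried a member, and 9 of these passed the level. They had medians of 0.912% in HEC and 1.30% in AEC cells, with 1 of 9 at 10% or more in both. *Srsf3* (chr17:29032628-29043373, plus strand) had 0.564% to 38.0% per HEC cell (median 6.37%) and 0% to 100% per AEC cell (median 0.443%), from an own exon of 456 bases. Its NMD reads were found in all 24 HEC cells but in 13 of 24 AEC cells, while the pooled shares were close, 12.2% in HEC and 10.8% in AEC cells. *Srsf7*, with an own exon of 460 bases, had pooled shares of 13.7% in HEC and 9.47% in AEC cells, with NMD reads in 21 HEC and 15 AEC cells. *Tra2b*, with an own exon of 276 bases, had 1.01% to 60.6% per HEC cell (median 12.6%) and 0% to 81.8% per AEC cell (median 1.36%). Its NMD reads were found in all 24 HEC cells and in 16 of 24 AEC cells. In these 3 genes NMD reads were found in more HEC than AEC cells, and 1 HEC but 6 AEC cells had under 100000 reads, whose part was not tested.

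*Srsf2* had pooled shares of 16.9% in HEC and 21.4% in AEC cells, but without AEC 6 the difference was 0.442 points in place of -4.57, and its leading member shares 448 exonic bases with *Mettl23* on the opposite strand. *Srsf1* had 8.61% in HEC and 23.4% in AEC cells, with 0% to 34.9% per HEC cell (median 6.42%) and 0% to 95.9% per AEC cell (median 0.270%). The high AEC share of *Srsf1* came from a few cells: NMD reads were found in 15 HEC and 12 AEC cells, and the per-cell means were 8.81% ± 10.02 in HEC and 18.4% ± 29.5 in AEC cells.

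Other genes picked by the naming rule include some of chromatin, metabolism and protein turnover. As gene lists these did not stand out. Only listed genes that carried a member and passed the level were counted. A share of 10% in both groups was reached by 0 of 4 chromatin, 0 of 7 proteasome and 1 of 10 oxidative phosphorylation genes. Over all genes it was 40 of 243. *Cbx1*, *Cenpa*, *Uchl5* and *Atp5f1* were not on these lists. *Cbx1*, the heterochromatin protein HP1 beta, had 28.6% to 98.5% per HEC cell (median 69.0%) and 0% to 100% per AEC cell (median 81.1%), and pooled shares of 65.8% in HEC and 64.7% in AEC cells. *Cenpa*, the centromeric histone H3 variant, had 50.8% in HEC and 48.1% in AEC cells. *Tmem234*, a predicted membrane protein, had 54.9% in HEC and 68.4% in AEC cells over its 11 members. Among the proteasome genes *Psma3* had 20.4% in HEC and 9.73% in AEC cells, and *Uchl5*, a deubiquitinase of the proteasome, had 16.96% in HEC and 4.89% in AEC cells. *Wdr26*, a subunit of the CTLH ubiquitin ligase, had 26% in HEC and 15.04% in AEC cells. Of the respiratory chain, *Ndufs4*, a complex I subunit, had 16.1% in HEC and 5.87% in AEC cells, but -4.14 points without AEC 7. *Atp5f1*, a subunit of the ATP synthase, had 11.7% in HEC and 23.5% in AEC cells. *Nisch*, the imidazoline-binding protein nischarin, had 0.417% in HEC and 11.6% in AEC cells.

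*Sat1*, the spermine and spermidine acetyltransferase that sets the turnover of polyamines, differed in how its level was made up. Its member includes an own exon of 110 bases that holds the stop. The share was 0% to 94.1% per HEC cell (median 10.8%) and 0% to 37.5% per AEC cell (median 0%), with NMD reads in 22 HEC and 11 AEC cells. The groups overlapped up to 37.5%, the highest AEC cell, while 13 AEC cells were at 0 and 3 HEC cells were above 50%. Pooled shares were 19.6% in HEC and 1.71% in AEC cells. Over recovered reads they were 17.2% in HEC (exact Clopper-Pearson 95% interval 16.2% to 18.2%) and 1.42% in AEC cells (1.28% to 1.56%). Reads without molecular identifiers need not be separate molecules, so these intervals cover only counting error. The mean level of the gene was 2.10 ± 3.07 in HEC and 7.88 ± 10.1 in AEC cells, a log2 ratio of -1.86, while the NMD transcript averaged 0.412 in HEC and 0.135 in AEC cells, a log2 ratio of 1.12. The cell AEC 2 supplied 63.97% of the NMD value of the AEC cells, and without it their pooled share was 0.665%. Among HEC cells the highest NMD value was 3.21, in HEC 16. The difference in share was 17.9 points, and 14.04 to 21.8 points with each cell left out in turn. It was 0 points with members limited to transcript support level 1 or 2, so it rested on a member outside these levels. The per-cell means differed by 18.6 points, 21.3% ± 24.4 in HEC and 2.65% ± 8.07 in AEC cells, more than the AEC SD and less than the HEC SD.

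**Figure D4:**
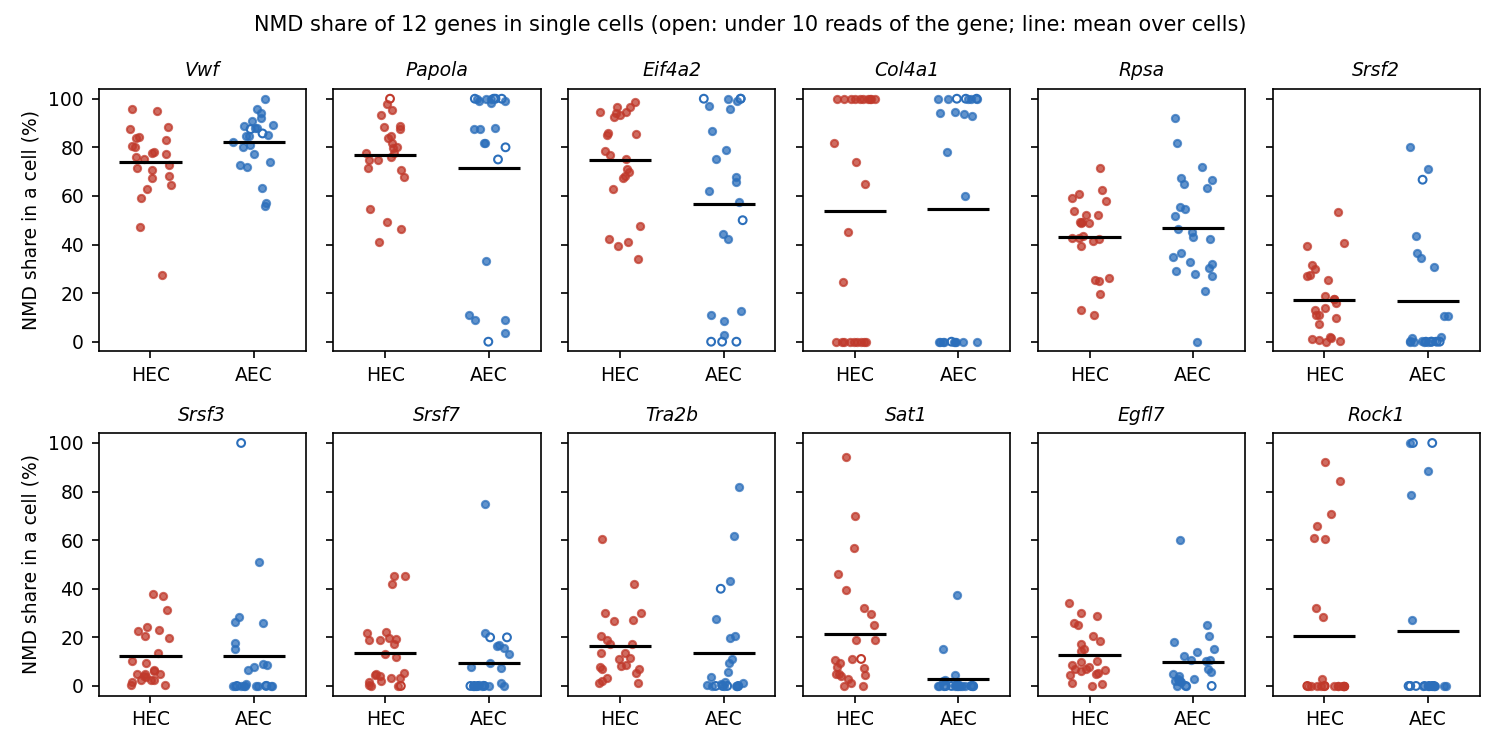
NMD share of 12 genes in each cell with the gene above 0 (percent of the gene's value in that cell), HEC left and AEC right. Open points rest on under 10 reads of the gene and lines are means over cells; *Vwf* lies mostly above 50% in both groups, *Col4a1* and *Rock1* split between 0% and high values, and *Sat1* is at 0% in 13 AEC cells.

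Several of these differences depended on how cells were weighted. Pooled over recovered reads, the HEC minus AEC difference had the opposite sign in *Cbx1* (-9.40 points), *Mrps14* (-2.49), *Wdr26* (-1.29), *Hnrnpd* (3.43) and *Ndufs4* (-7.12), as it did in *Col4a1* and *Eif4g1*. By the per-cell means it had the opposite sign in *Coro1c* (8.59 points), *Cbx1* (-3.58), *Mrps14* (-5.46), *Hnrnpd* (4.99), *Ndufs4* (-8.39), *Srsf2* (0.442) and *Srsf3* (-0.137). *Cenpa*, with close pooled shares, had 59.4% in HEC and 37.2% in AEC cells over recovered reads. *Uchl5* differed by 3.10 points over recovered reads and by 0.456 points by the per-cell means, in place of 12.1. *Rock1* differed by -5.56 points over recovered reads. Single cells also counted: without AEC 6 the AEC share of *Uchl5* was 2.61%, without AEC 15 that of *Psma3* was 6.23%, and without HEC 11 the HEC share of *Atp5f1* was 7.48%.

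A difference of 20 points or more between the pooled shares was found in 5 of 243 genes, or 2.06%, of which 2 were higher in HEC (0.823%) and 3 lower (1.23%). Among 642 genes with a retained-intron transcript the same limit was passed by 2.18%, so the NMD genes were near that background. *Atp2a2* was 21.6 points higher in HEC cells, and *Rock1* was 25.3, *Prpf38b* 24.7 and *Ktn1* 21.1 points lower. By the per-cell means 0 genes differed by 20 points, and the gap was 6.24 points for *Atp2a2*, -1.73 for *Rock1*, -14.9 for *Prpf38b* and -16.6 for *Ktn1*.

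Single cells decided the calls of these 4 genes. In *Prpf38b* the difference was -17.4 points without AEC 15, a cell with a share of 71.5%. The AEC mean of the gene was then 0.789, under the mean of 1 required for a share. In *Rock1* the difference was -14.6 points without AEC 17 and -14.3 without AEC 18, cells with shares of 88.6% and 100%. Its AEC mean was then 0.862 without AEC 17 and 0.900 without AEC 18, also under 1. *Ktn1* was under the limit without AEC 2, AEC 4, AEC 7, AEC 13, AEC 18 or AEC 23, with -13.8 points at the least. *Atp2a2* was under it without HEC 9, HEC 10, HEC 15, AEC 17, AEC 19 or AEC 22, with 15.99 points at the least, and its pooled reads gave -0.70 points. The count of genes past 20 points was 8 without AEC 21.

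The spread between cells was wide in both groups. In the 57 genes with a mean share of 10% or more, cells with at least 100 reads of a gene were counted. Of 856 such pairs of a gene and an HEC cell 26.9% had a share of 5% or less and 6.07% one of 95% or more, and of 710 pairs in AEC cells 41.4% had 5% or less and 10% had 95% or more. Both proportions were higher in AEC cells, and since pairs share cells the gap was not tested. The SD of the share between cells had a median of 4.20 points in HEC and 8.19 points in AEC cells over the 243 genes. NMD reads were found in every one of the 48 cells for 3 genes.

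The share went with where a member departs from the coding transcripts. Where the nearest own junction of the leading member lay within 1000 bases of the 3′ end, 16 of 160 genes (10%) had a share of 10% or more in both groups, with medians of 0.601% in HEC and 0.748% in AEC cells. Between 1000 and 2000 bases it was 13 of 38 genes (34.2%), with medians of 6.40% in HEC and 5.36% in AEC cells. Beyond 2000 bases it was 8 of 22 (36.4%), with medians of 7.04% in HEC and 10.005% in AEC cells. Where the leading member had no own junction it was 3 of 23 genes, with medians of 1.02% in HEC and 1.46% in AEC cells. Of the 20 genes with the highest mean share 12 had the junction beyond 1000 bases, 6 within and 2 had none. A read that ends before it reaches the own junction carries no base that tells the member from a coding transcript with the same 3′ exons. The sources used here do not say how such reads were divided, and their part in the high shares was not tested. With members limited to an own junction within 1000 bases, 18 genes were at 10% or more in both groups and 0 at 50%.

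By the kind of stop, 21 of 107 genes (19.6%) reached 10% in both groups where the stop lay in exon sequence of coding transcripts but none of them stops there. It was 8 of 107 (7.48%) where the stop lay in sequence of no coding transcript, and 11 of 29 (37.9%) where a coding stop was kept and a junction followed. Genes whose leading member had an own exon reached 10% in both groups in 9 of 90 cases (10%). The poison exons of *Srsf3*, *Srsf7* and *Tra2b* belong to this last kind, and their own junctions lie 1640, 1040 and 1225 bases from the 3′ end.

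**Figure D5:**
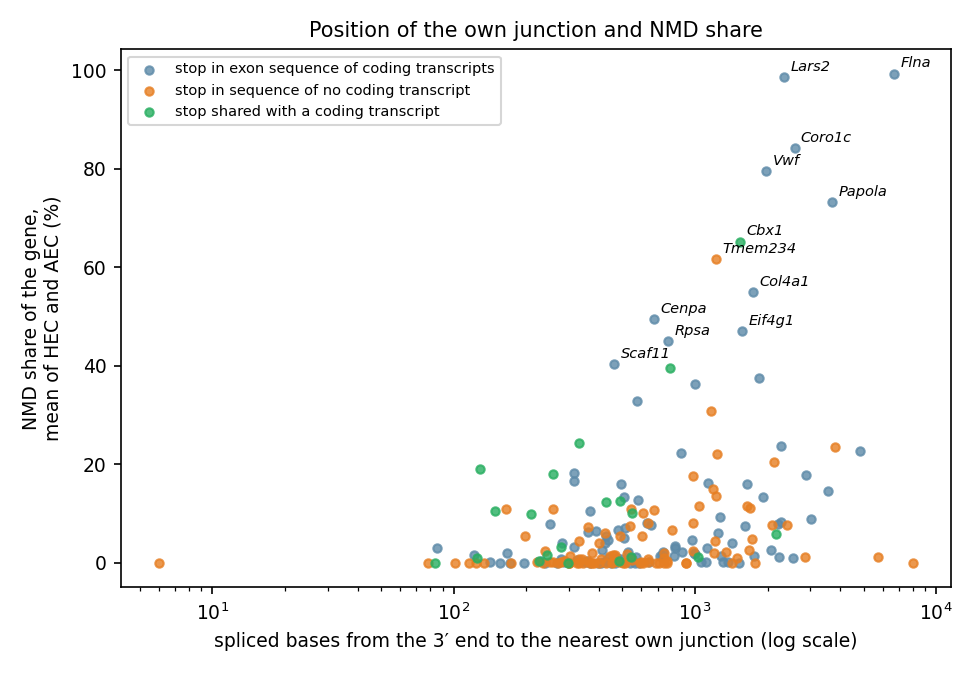
Mean of the HEC and AEC NMD shares (percent, vertical axis) of each gene against the distance of the leading member's nearest own junction from its 3′ end (spliced bases, log scale); colors give the kind of stop, and genes with no own junction are not drawn. The genes drawn above 60% lie beyond 1000 bases, *Lars2* at 2344 and *Flna* at 6704.

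Of the decay machinery itself, 6 of 10 exon junction complex genes but 1 of 21 NMD factors had a mean of 1 or more in both groups, a level reached by 1230 of 21435 genes. Of all 31, 17 had a mean of 0.5 or more over the 48 cells. Their median log2 ratio was 0.34, with 11 higher in HEC cells and 0 past a ratio of 1 in size, a limit that 15.2% of 3298 genes passed. With a median-of-ratios scaling the median was 0.04, and the median of all 3298 genes was then -0.24 in place of 0.05. The 8 exon junction complex genes among the 17 had a median of 0.35, and the 9 NMD factors one of 0.04, close to that of all genes. *Upf1*, the central helicase, averaged 0.503 ± 0.430 in HEC and 0.538 ± 0.647 in AEC cells, and *Smg1*, the kinase that phosphorylates it, averaged 0.534 ± 0.575 in HEC and 0.630 ± 1.16 in AEC cells. *Eif4a3*, a core protein of the exon junction complex, averaged 2.55 ± 1.02 in HEC and 1.99 ± 1.79 in AEC cells. None of the 17 differed by more than the larger of the 2 SDs between cells. Of the 14 genes under 0.5, 10 were higher in HEC cells and the others lower. The 3 of them past a log2 ratio of 1, all higher in HEC cells, are given here, chosen after their values were seen. *Upf2*, the partner of *Upf1*, averaged 0.533 ± 0.454 in HEC and 0.205 ± 0.368 in AEC cells. *Dcp2*, a decapping enzyme, averaged 0.619 ± 0.527 in HEC and 0.181 ± 0.414 in AEC cells. *Xrn1*, the 5′ to 3′ exonuclease, averaged 0.488 ± 0.403 in HEC and 0.137 ± 0.229 in AEC cells. The gaps of these 3 genes were below the HEC SD, while those of *Dcp2* and *Xrn1* were above the AEC SD. Of the 21 NMD factors *Smg1*, *Smg6* and *Dcp1a* carry members, and 0 of them passed the level for a share.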

How the data were processed

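Each deposited table holds 1 cell's signal per transcript in reads per 10000, and every cell summed to 10000. Per the submitters' processing notes minimap2 2.18-r1015, Salmon 1.1.0 and mm10 were used. The sources used here do not give their annotation release. Transcript types, genes and stop codons came from GENCODE M21, and 128 identifiers had no match. Values were whole multiples of the smallest one, which gave reads per cell. Because whole reads sum to the depth, precision is limited by depth, from 13261 reads. Low values can be a single read.

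Shares were pooled over cells as values, with per-cell means, recovered reads and thinning to 10000 reads beside them. With 1 sample per group no count test was run. Log2 ratios used a pseudocount of 0.1 on group means. Named genes were those found in at least 12 HEC and 12 AEC cells with the 20 highest mean shares, the 10 highest and 10 lowest differences, and listed SR, NMD, junction complex, endothelial and hemogenic genes at 10% or more in a group. Some of the genes so chosen are not reported here. Members, lists and limits were chosen with earlier results of these data known. Alternatives covered cells, members, denominator, pooling, level and scaling. The share code was tested on simulated data. Python 3.11.15, numpy 2.4.6, pandas 2.3.3 and scipy 1.17.1 were used.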

Additional observations from a re-analysis of the deposited data

How the results depend on the processing

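No paired analysis was possible because the numbers shared by HEC and AEC titles only name cells. The count of genes differing by 20 points, 5, was 9 in cells of 100000 reads or more, 2 with members of transcript support level 1 or 2, 0 by the mean over cells, 1 by that mean over cells with at least 10 reads, and 1 at a limit of 30 points. A gene mean of 0.5 gave 44 genes and a mean of 2 gave 0. The 40 genes at 10% or more became 22 with support level 1 or 2, 119 at a mean of 0.5 and 17 at a mean of 2, and the 8 genes at 50% or more became 25 and 4 at these means. More genes pass the lower level and fewer the higher one, by construction. Limiting members to an own junction within 1000 bases, chosen after seeing the data, gave 18 genes at 10%, 0 at 50% and 1 differing by 20 points. Leaving out each cell in turn gave 4 to 8, 37 to 44 and 8 to 10 genes at these limits, and -0.203 to -0.0984 points for the difference of the per-cell medians. *Atp2a2* was at -0.70 points by pooled reads, and the machinery median at 0.0449 by median-of-ratios scaling. For the other changes the cause was not tested. Restricting stops to over 50 bases before the last junction, and leaving out *Lars2*, were also added after seeing the data. The first left the 3 counts as they were, and without *Lars2* the difference of the medians kept its sign. Among single named genes 26 values were counted as moved by more than the spread, 1 of *Atp2a2* as reversed, and 2145 as within the spread. Other differences also changed sign without being counted as reversed. Over recovered reads *Col4a1* went from -15.1 to 17.8 points and *Eif4g1* from 18.3 to -14.8. Shares of lightly read genes in shallow cells rest on single reads, and depth limits what the AEC cells can show.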
